A study of Mus musculus with 10 samples.

Results

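The comparison described here sets injured kidneys of mice carrying Pax8creERT2 and the floxed Indian hedgehog gene (Ihhfl/fl) after tamoxifen against injured kidneys of the same genotype without it. It holds 8 of the 32 bulk RNA libraries of the series: 4 libraries titled IRI.TG.TAM, called tamoxifen libraries 1 to 4, and 4 titled IRI.TG.VEH, called vehicle libraries 1 to 4. They were taken by their column titles, and no measured value entered the choice. In Pax8creERT2 a Cre recombinase that needs tamoxifen is driven from Pax8, a gene of the tubular epithelium, so that recombination is directed at tubule cells and not at the whole organ. All animals were 8 weeks old. The renal artery of 1 side was tied for 15 minutes (ischaemia-reperfusion injury, IRI), and kidneys were taken 2 weeks later. Both groups compared carry the Cre and the floxed allele and both were injured, and the labels tell them apart by tamoxifen alone, so deletion of Ihh and exposure to tamoxifen cannot be told apart within this pair. The third injured group, 4 libraries of C57/BL6 wild-type mice given tamoxifen (IRI.WT.TAM), is quoted for its levels beside them. Contralateral kidneys of the same treatment groups, 4 libraries each, entered the same model and supply the comparison without ischaemia. Which exons were floxed, the dose and time of tamoxifen, and whether the numbered libraries are separate animals are not stated in the labels. P-values therefore rest on the spread between libraries, which may be partly technical. In the model across all genes this spread was estimated over all 24 libraries of the injury arms, not over the 8 compared libraries alone.

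Indian hedgehog is a secreted ligand of the Hedgehog family. It binds Patched receptors on neighbouring cells, which releases Smoothened and turns on the Gli transcription factors, and Gli1, Ptch1 and Hhip are the usual transcriptional readouts. In kidney the ligands are known mainly from epithelium and the responding cells mainly from fibroblasts and pericytes of the interstitium, the cells that lay down collagen after injury.

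The 8 libraries held 18.2 to 26.8 M counts and 19109 to 20183 genes with a count. Levels are CPM (counts scaled to a common total) from the library size after trimmed-mean (TMM) scaling, and fold changes are log2 values of tamoxifen over vehicle, each with its standard error (SE). All 8 libraries held the RNA of kidney tubule cells, and Lrp2, the megalin receptor of the proximal tubule, stood at 1533 to 8988 CPM. Individual libraries lay toward the other group before any gene was tested. Immunoglobulin genes took 2.41% of counts in tamoxifen library 4 and 0.106% to 0.268% in the other 3, and they took 0.061% in vehicle library 3 against 0.278% to 1.61% in the other 3. In bulk RNA, fewer cells of a type and less RNA per cell cannot be told apart.

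Ihh itself (chr1:74945315-74951672, strand -, GRCm38, 3 exons in its coding transcript) was lower but present in the tamoxifen libraries. It stood at 4.36, 6.16, 5.47 and 4.42 CPM in tamoxifen libraries 1 to 4 and at 8.21, 9.22, 14.02 and 5.38 CPM in vehicle libraries 1 to 4. Vehicle library 4 lay inside the tamoxifen range, and the other 3 vehicle libraries lay above it. The means were 5.103 CPM (SD 0.867, n = 4) and 9.21 CPM (SD 3.598, n = 4), a difference of -4.10 CPM with a 2-sided exact permutation p = 0.0857, where 4 against 4 libraries allow no p below 0.0286. Without the scaling, in CPM of the library totals, the difference was -5.52 CPM and the exact permutation p was 0.0286. The model across all genes did not call it (log2 -0.85, SE 0.38, adjusted p = 0.118), while DESeq2 called it on the 8 compared libraries alone (log2 -0.85, adjusted p = 0.0424) and on the 12 injured libraries (log2 -0.85, adjusted p = 0.0339), but not on all 24 (adjusted p = 0.0819). Wild-type injured kidneys after tamoxifen held 7.75, 4.896, 8.195 and 10.1 CPM, and the contralateral kidneys of the floxed mice held 4.92, 9.62, 3.98 and 18.8 CPM with tamoxifen and 8.94, 16.9, 13.99 and 14.1 CPM without. In the library labelled contralateral tamoxifen 4, Ihh went against its label. Most of the signal came from the coding transcript, Ihh-201 of 2468 bases, and a shorter transcript with a retained intron, Ihh-202 of 1385 bases, had 0.564 to 0.994 CPM of library totals in the tamoxifen and 0.495 to 1.74 in the vehicle libraries. A transcript that has lost floxed exons may still be counted, so these RNA levels do not measure recombination.

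RNA of several Hedgehog pathway genes was lower in the tamoxifen libraries, while Ptch1 was not called. Across the genome 2481 of 16989 genes passed an adjusted p of 0.05 by edgeR's quasi-likelihood test (14.6%), 7.48% higher and 7.13% lower. The list counts of injured kidney, here and in the paragraphs below, are to be read against these shares. Of the 3 ligands, Dhh (desert hedgehog) fell (log2 -1.38, SE 0.38, adjusted p = 0.0259). Its libraries held 0.432, 0.453, 0.866 and 0.5103 CPM with tamoxifen and 0.847, 2.15, 1.46 and 1.42 CPM with vehicle, low levels that overlapped at vehicle library 1. Shh (sonic hedgehog) stood at 1.53, 1.22, 0.0911 and 0.5103 against 0.593, 0.659, 1.07 and 0.989 CPM and did not pass (log2 0.021, SE 0.52, adjusted p = 0.984).

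Of 18 genes of Hedgehog reception and transport, 5 fell and 2 rose. Scube1, a secreted protein of the family that helps release Hedgehog ligands, fell (log2 -1.47, SE 0.45, adjusted p = 0.0355), and vehicle library 3, at 3.48 CPM, overlapped the tamoxifen libraries. Gpr161, a ciliary receptor that restrains the pathway, stood at 8.06, 7.79, 2.92 and 7.93 against 8.85, 17.1, 9.75 and 15.9 CPM and fell without overlap (log2 -0.95, SE 0.29, adjusted p = 0.0369). Cdon and Boc, Hedgehog co-receptors, also passed at log2 -0.698 and -0.604. The members that rose were Evc (log2 0.75, SE 0.203, adjusted p = 0.0233) and Evc2 (log2 0.41, adjusted p = 0.0166), which act together at the base of the cilium downstream of Smoothened. Evc held 219, 224, 309 and 175 CPM with tamoxifen and 148, 121, 181 and 99.8 CPM with vehicle, so that tamoxifen library 4 and vehicle library 3 crossed. Cdon, Boc and Evc2 were named after their values were seen.

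Among 17 tested Gli factors and response genes, 6 fell and none rose by this test. This list and the reception list hold 18 genes each but 33 different genes together. They share members, so their counts and medians are not independent. Gli1, the standard readout, stood at 2.08, 1.31, 0.501 and 2.35 CPM in the tamoxifen and 4.11, 4.08, 1.34 and 6.66 CPM in the vehicle libraries (log2 -1.36, SE 0.43, adjusted p = 0.0391). The fall was carried by vehicle libraries 1, 2 and 4, while vehicle library 3 lay among the tamoxifen values. Gli3, the Gli factor best known as a repressor, did not overlap, at 4.17, 4.93, 2.73 and 4.93 against 6.31, 7.903, 5.73 and 11.5 CPM (log2 -0.903, SE 0.26, adjusted p = 0.0283). Foxl1, a forkhead factor of mesenchymal cells, behaved alike at 2.24, 2.26, 0.638 and 2.42 against 3.09, 3.82, 3.001 and 5.504 CPM (log2 -1.02, SE 0.32, adjusted p = 0.0376). Ptch1, which encodes the main receptor, stood at 62.3, 69.95, 70.9 and 66.95 CPM against 54.5, 68.9, 74.2 and 65.3 CPM (log2 0.039, SE 0.12, adjusted p = 0.847), so the 2 groups held nearly equal means of 67.5 and 65.7 CPM. Hhip, the decoy receptor, was low and scattered, at 0.354, 0.136, 0.182 and 1.05 against 2.96, 0.439, 0.395 and 1.38 CPM (log2 -1.53, SE 0.77, adjusted p = 0.167). Wild-type injured libraries held 3.95, 3.04, 4.02 and 4.41 CPM of Gli1 and 82.7, 78.2, 85.1 and 83.4 CPM of Ptch1. The median log2 value was -0.51 over the reception genes and -0.76 over the response genes, beside -0.0077 over all genes tested. Fibroblast genes moved the same way (11 of 17 fell), and their part in these values was not tested. With 1 library left out in turn, 0 to 8 reception genes and 0 to 9 response genes fell, with 0 in both lists without tamoxifen library 3 or vehicle library 4.

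**Figure D1:**
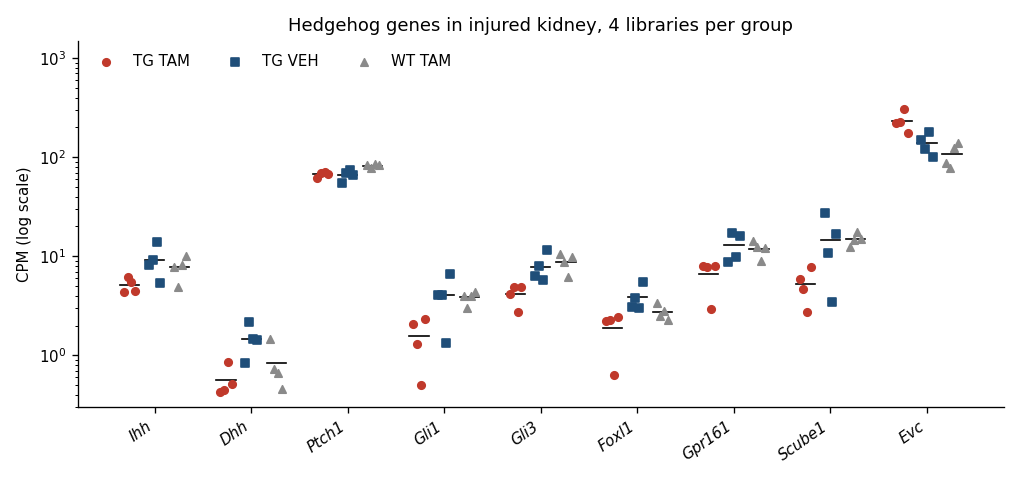
CPM on a log axis of 9 Hedgehog genes in injured kidney, with 1 point per library, 4 libraries per group and short lines at the group means, for floxed mice with tamoxifen (TG TAM), floxed mice with vehicle (TG VEH) and wild-type mice with tamoxifen (WT TAM). Gli3, Foxl1 and Gpr161 do not overlap between TG TAM and TG VEH, whereas Ptch1 lies at 62.3 to 70.9 against 54.5 to 74.2 CPM.

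The promoters of these genes were searched for the Gli motif GACCACCCA and its core CCACCCA on both strands, in windows of 250 bases before to 50 after the start site from RefSeq (GRCm38.p6). Of 33 Hedgehog genes 23 matched the promoter table, with 25 windows, and 0 windows held either form. Among 32841 windows of all genes, 0.253% held the full motif and 9.31% the core. The core lies inside the full motif, so the shares overlap. No match says only that these letters are not in these windows.

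The 2481 calls divided into 1270 genes higher and 1211 lower in the tamoxifen libraries, and 5808 genes had an unadjusted p under 0.05. All 24 libraries of the injury arms share 1 estimate of the spread in this fit. The median SD of log2 CPM within a group was 0.25 in the tamoxifen and 0.27 in the vehicle libraries of injured kidney, and 0.18, 0.35 and 0.16 in the contralateral groups. Fitted on the 8 compared libraries alone, edgeR called 0 genes, with 4772 at an unadjusted p under 0.05, while DESeq2 called 2511 on those same libraries, of which 1806 were among the 2481. Fitted on the 12 injured libraries, edgeR called 13 genes and DESeq2 3409. Of those 13 genes 12 were among the 2481, and Cyp7b1, Methig1 and Nxpe5, described next, were among the 12. Single libraries moved the count in both directions. It was 1528, 724, 133 and 4883 without tamoxifen libraries 1 to 4 and 2365, 704, 4250 and 93 without vehicle libraries 1 to 4. The count was thus lowest without tamoxifen library 3 or vehicle library 4, and highest without tamoxifen library 4 or vehicle library 3. Separation without overlap between the 8 libraries was seen in 14.3% of genes, 8.04% upward and 6.21% downward, or 3.92% and 12.1% when CPM were taken from library totals without scaling.

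Of the genes described here as higher after tamoxifen, Cyp7b1 had the smallest adjusted p. It belongs to the list of proximal tubule enzymes and not to the 12 genes named for the largest change, which follow it. The rule that named those 12 and the lower genes below required groups without overlap, so their separation was fixed by the choice. Cyp7b1, the oxysterol hydroxylase of bile acid and steroid metabolism, stood at 178, 162, 140.4 and 138 CPM in the tamoxifen libraries and at 26.8, 45.97, 36.2 and 19.9 CPM in the vehicle libraries (log2 2.26, SE 0.22, adjusted p = 2.22e-05). The lowest tamoxifen library was far above the highest vehicle library, and the wild-type tamoxifen libraries, at 27.6, 31.6, 47.5 and 40.3 CPM, lay with the vehicle group. Methig1, a methyltransferase-like gene of chromosome 15 (chr15:100353149-100384436), stood at 23.3, 16.2, 18.9 and 12.2 against 2.46, 3.47, 3.83 and 1.85 CPM (log2 2.601, SE 0.27, adjusted p = 3.89e-05). Mettl7a2 (chr15:100353200-100361840), of the same family, stood at 96.7, 67.3, 79.5 and 43.6 against 8.25, 14.6, 14.3 and 4.04 CPM (log2 2.799, SE 0.39, adjusted p = 0.000663), with wild-type libraries at 7.18, 8.8, 25.8 and 13.01 CPM. These 2 genes were separated in every library but are not independent: RefSeq gives them the same 300-base promoter window, chr15:100352950-100353249 on the + strand of GRCm38.p6, printed because reads of transcripts from this start may be split between both names.
Methig1 and Mettl7a2: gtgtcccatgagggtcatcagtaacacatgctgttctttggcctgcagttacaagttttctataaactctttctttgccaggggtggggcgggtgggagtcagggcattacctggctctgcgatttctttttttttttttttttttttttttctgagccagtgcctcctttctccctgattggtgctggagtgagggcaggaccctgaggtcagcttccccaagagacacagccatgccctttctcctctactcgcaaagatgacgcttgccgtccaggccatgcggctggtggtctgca
Neither form of the Gli motif is in this window, nor in the other windows of the 12 higher genes, a set without Cyp7b1. RefSeq gave 10 windows for 9 of these genes, a number that counts the shared window under each of its 2 names. Extending the search to the named genes was decided after their values were seen.

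Ceacam2, a cell adhesion molecule of the immunoglobulin superfamily, had 27.3, 20.3, 23.4 and 9.49 CPM with tamoxifen and 0.296, 2.81, 1.26 and 0.688 CPM with vehicle (log2 3.99, SE 0.63, adjusted p = 0.0026). Its near paralog Ceacam1 can share reads with it, so its level is uncertain. Mep1b, the meprin beta subunit of the proximal brush border, stood at 206, 192, 226 and 168 against 62.7, 42.6, 37.9 and 12.8 CPM (log2 2.34, SE 0.37, adjusted p = 0.00255), a separation that the naming rule required. A4gnt, a glycosyltransferase of mucin sugars, stood at 23.4, 14.2, 15.1 and 13.2 against 4.49, 3.91, 2.88 and 1.81 CPM (log2 2.33, SE 0.298, adjusted p = 0.000663). Akr1c18, a hydroxysteroid dehydrogenase that inactivates progesterone, stood at 3.65, 3.44, 6.61 and 3.16 against 0.593, 0.746, 0.7898 and 0.43 CPM (log2 2.71, SE 0.53, adjusted p = 0.00893). Hpd, an enzyme of tyrosine breakdown, did not overlap either, at 17.1, 13.6, 30.1 and 8.403 against 3.17, 2.898, 6.397 and 1.204 CPM (log2 2.33, SE 0.55, adjusted p = 0.016). Mpped1 (log2 2.43) and Neurog2 (log2 2.496), the latter a neuronal transcription factor, were also separated, Neurog2 at 2.52, 3.12, 5.88 and 3.504 against 1.06, 0.571, 0.7503 and 0.258 CPM. Scd1, the stearoyl-CoA desaturase that makes monounsaturated fat, showed 956, 2467, 285 and 533 CPM with tamoxifen and 211, 268, 155 and 56.8 CPM with vehicle (log2 2.62, SE 0.68, adjusted p = 0.0211). For Scd1 the wild-type tamoxifen libraries, at 1853, 606, 679 and 2279 CPM, were on the side of the floxed tamoxifen libraries. Eif3j2 (log2 4.02, SE 1.15, adjusted p = 0.0284), a copy of the initiation factor gene Eif3j1, and Fam220a (log2 2.602, SE 0.702, adjusted p = 0.0234), annotated under 2 gene IDs at 1 locus, completed the 12 and are uncertain. The other Fam220a ID went the opposite way without being called (log2 -1.38, adjusted p = 0.209). Of these 12 genes, 3 had wild-type libraries that overlapped the floxed tamoxifen range (Fam220a, Hpd and Scd1). In 11, all but Scd1, the wild-type libraries overlapped the vehicle range. These counts cover genes chosen for separated tamoxifen and vehicle ranges, with no share over all genes tested beside them. They do not show which group the wild-type libraries resemble in general.

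The genes named as lower after tamoxifen included Cx3cr1 and the fibrillar collagen genes Col1a1 and Col3a1. Cx3cr1, the fractalkine receptor of monocytes and resident macrophages, stood at 7.43, 5.21, 3.65 and 14.4 CPM in the tamoxifen libraries and at 38.5, 21.8, 18.5 and 63.98 CPM in the vehicle libraries (log2 -2.21, SE 0.403, adjusted p = 0.0069). Tamoxifen library 4 was the highest of its group and vehicle library 3 the lowest of the other. They did not cross, as the naming rule required of all the lower genes in this paragraph. The wild-type libraries held 121, 87.04, 43.1 and 69.4 CPM. Col1a1, the main chain of type I collagen, fell from 407, 432, 229 and 840.5 CPM to 132, 123, 38.1 and 130.0 CPM (log2 -2.18, SE 0.48, adjusted p = 0.0133), and tamoxifen library 3 lay far below the other 3. Col3a1, of type III collagen, followed it at 165, 166, 67.1 and 195 against 570.3, 513, 286 and 1054 CPM (log2 -2.03, SE 0.39, adjusted p = 0.00809). Among the 11 lower genes reported here Nxpe5 had the largest fall (log2 -2.49, SE 0.42, adjusted p = 0.00444), from 2.96, 4.48, 2.45 and 4.47 to 0.786, 0.453, 0.319 and 0.953 CPM. Serpina3n, an acute-phase inhibitor of serine proteases, stood at 11.6, 20.6, 2.46 and 24.1 against 53.03, 54.9, 35.7 and 151 CPM (log2 -2.32, SE 0.55, adjusted p = 0.0161), with tamoxifen library 3 lowest and vehicle library 4 highest. Serpina3i, of the same tandem family and so with reads that may be shared, fell (log2 -1.95, SE 0.496, adjusted p = 0.0196). Timp1, an inhibitor of matrix metalloproteinases, stood at 2.004, 1.49, 1.002 and 1.84 against 4.53, 6.24, 3.08 and 11.3 CPM (log2 -1.98, SE 0.51, adjusted p = 0.0211). Siglec1, a sialic acid receptor of macrophages (log2 -1.903), and Fcrls, a scavenger receptor-like gene of macrophages (log2 -1.82), both fell without overlap. Cxcl5, a neutrophil chemokine (log2 -1.87), and Sfrp4, a secreted Wnt antagonist (log2 -1.85), made up the 11. In 4 of them (Cxcl5, Serpina3i, Serpina3n and Timp1) the wild-type tamoxifen libraries overlapped the floxed tamoxifen range. In 9 of the 11, all but Cxcl5 and Serpina3i, the wild-type libraries overlapped the vehicle range. These counts, too, cover the named genes alone, with no share over all genes tested beside them. For Cxcl5 the wild-type libraries held 1.59, 1.49, 1.37 and 1.804 CPM, within the floxed tamoxifen range and below every vehicle library.

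Of the 11 lower genes 7 had a promoter window in the table, and the core of the Gli motif was present in 2 of these 7 windows, those of Cx3cr1 and Timp1, against 9.31% of all windows. They are printed because they are the only matches among the 12 higher and 11 lower genes, with the core in capitals. The Cx3cr1 window is chr9:120068247-120068546 on the - strand, with the core 221 bases before the start, and the Timp1 window is chrX:20869916-20870215 on the + strand, with the reverse complement TGGGTGG 18 bases after it. A match of this length is a description of the letters and not evidence of a bound site.
Cx3cr1: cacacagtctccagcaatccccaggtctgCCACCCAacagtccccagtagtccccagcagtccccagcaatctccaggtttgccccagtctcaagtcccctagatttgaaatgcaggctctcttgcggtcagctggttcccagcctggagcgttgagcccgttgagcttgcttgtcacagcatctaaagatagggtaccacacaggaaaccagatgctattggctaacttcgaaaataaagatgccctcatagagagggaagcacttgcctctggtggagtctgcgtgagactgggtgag
Timp1: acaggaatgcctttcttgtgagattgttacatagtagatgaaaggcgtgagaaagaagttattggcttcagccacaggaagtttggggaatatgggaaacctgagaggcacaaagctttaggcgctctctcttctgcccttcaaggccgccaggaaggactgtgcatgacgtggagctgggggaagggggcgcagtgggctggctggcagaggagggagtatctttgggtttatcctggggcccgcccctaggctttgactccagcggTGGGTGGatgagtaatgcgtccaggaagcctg

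**Figure D2:**
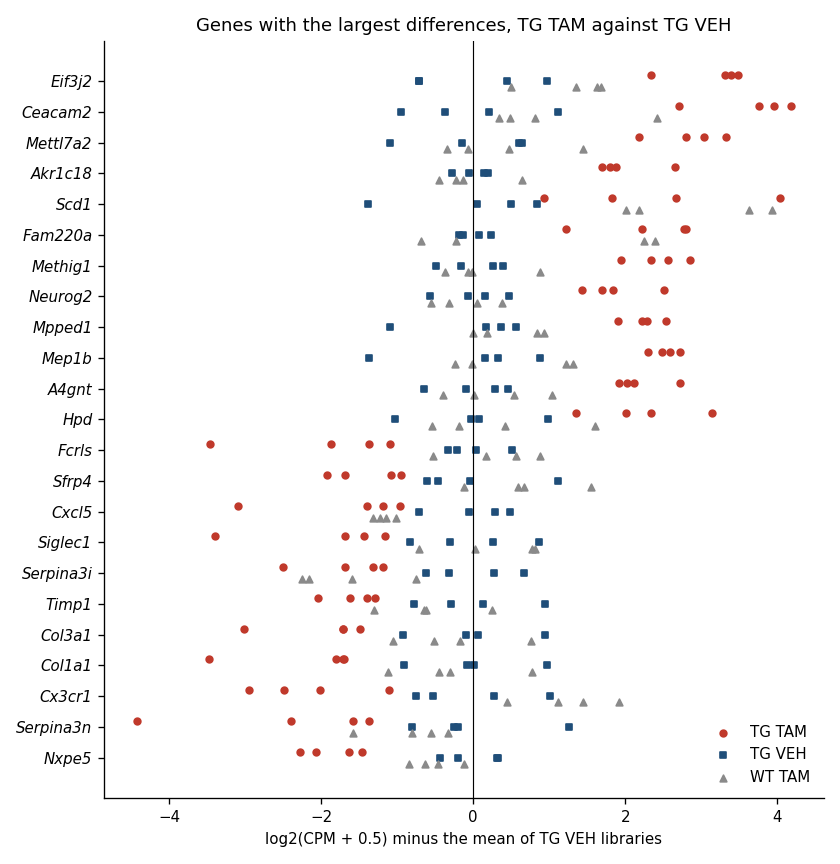
Each row is 1 of 23 genes with the largest called differences (12 higher, 11 lower), and each point is 1 library, as log2 of CPM plus 0.5 minus the mean of the 4 vehicle libraries. Floxed tamoxifen libraries (TG TAM) lie apart from vehicle libraries (TG VEH) in all 23 because the naming rule asked for it. The range of the wild-type tamoxifen libraries (WT TAM) overlaps that of the vehicle points except for Scd1, Cxcl5 and Serpina3i, where it overlaps the TG TAM range.

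Genes of collagen and of the cells that make it fell together. Of 21 fibrillar collagen and collagen-processing genes, 15 fell, 2 rose and the median was log2 -1.11. Beside Col1a1 and Col3a1, Col1a2 stood at 146, 149, 71.7 and 188 against 417, 381, 209.8 and 793 CPM (log2 -1.699, SE 0.35, adjusted p = 0.0112) and Col6a2, of the beaded-filament collagen VI, fell (log2 -1.55, SE 0.37, adjusted p = 0.0166). The members that rose were P4ha1 (log2 0.69) and P4ha2 (log2 0.33), subunits of the prolyl hydroxylase that acts on collagen, named after their values were seen. Summed over the list, collagen RNA stood at 1218, 1262, 825 and 1370.0 CPM in the tamoxifen and 2887, 2686, 1544 and 4846 CPM in the vehicle libraries. The groups were separated by the gap between tamoxifen library 4 and vehicle library 3, and wild-type injured libraries covered 4362, 2413, 1666 and 2661 CPM. Contralateral kidneys of the floxed mice held 722, 807, 818 and 834 CPM with tamoxifen and 969, 825, 859 and 968 CPM with vehicle.

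Matrix glycoproteins followed, with 12 of 21 lower, 0 higher by edgeR and a median of -1.18. The largest falls were in Thbs2, a matricellular thrombospondin (log2 -1.79), Mfap4, a microfibril-associated protein (-1.66), Ltbp2, a microfibril protein (-1.63), and Tnc, tenascin-C of wound matrix (-1.53). Tnc held 44.4, 29.4, 14.2 and 39.1 against 116, 104, 39.01 and 109 CPM, and vehicle library 3 stood apart from the other 3 vehicle libraries. Basement membrane genes changed less, with 5 of 17 lower and a median of -0.44. Col18a1 stood at 319.7, 322, 231 and 318 against 431, 528, 423 and 567 CPM (log2 -0.71, SE 0.17, adjusted p = 0.016), and Col4a1 and Col4a2, the ubiquitous type IV chains, fell without overlap (log2 -0.62 and -0.64). Nid1, the linker nidogen, fell (log2 -1.09) with overlap at vehicle library 3.

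Fibroblast and myofibroblast markers fell in 11 of 17 cases (median -1.14). Acta2, the smooth muscle actin of myofibroblasts, stood at 38.8, 43.96, 40.9 and 41.4 CPM after tamoxifen and 49.99, 113, 77.7 and 132 CPM with vehicle (log2 -1.17, SE 0.29, adjusted p = 0.0173), and all 4 tamoxifen libraries lay below every vehicle library. Vim (vimentin) also fell without overlap, at 78.05, 71.04, 34.8 and 119.9 against 146, 181, 126 and 244 CPM (log2 -1.196, SE 0.27, adjusted p = 0.0136). Pdgfra, the fibroblast receptor for platelet-derived growth factor, fell (log2 -1.23), as did Cdh11, a mesenchymal cadherin (log2 -1.46), and Thy1 (log2 -1.32). In Pdgfra, vehicle library 3, at 53.2 CPM, lay inside the tamoxifen values of 57.6, 77.97, 50.5 and 86.01 CPM. Mural cell genes were mixed, with 6 of 14 lower and 1 higher. Gucy1a1, a subunit of soluble guanylate cyclase in pericytes and interstitial cells, had the largest fall, from 96.8, 70.9, 41.4 and 194 to 31.01, 33.05, 29.4 and 39.6 CPM (log2 -1.597, SE 0.35, adjusted p = 0.0128), and Abcc9, the potassium channel subunit SUR2, rose from 24.04, 18.7, 21.8 and 16.8 to 55.7, 38.1, 39.05 and 35.99 CPM (log2 1.06, SE 0.21, adjusted p = 0.0111). Myh11 and Cnn1, of contractile smooth muscle, fell (log2 -1.12 and -1.16).

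In the TGF-beta pathway, the main profibrotic signal, 8 of 18 genes fell with a median of -0.45. Tgfbi, a TGF-beta-induced matrix protein, fell (log2 -1.17, SE 0.28, adjusted p = 0.0173), and so did the activin chain gene Inhba (log2 -0.899) and the ligand gene Tgfb2 (log2 -0.78). Tgfbi held 28.5, 27.1, 20.8 and 37.7 against 69.9, 59.05, 38.1 and 89.05 CPM and was the one of these 3 without overlap. Of 17 metalloproteinases and inhibitors, 8 fell (median -1.01). Mmp3, stromelysin, stood at 2.56, 4.17, 1.32 and 7.45 against 18.8, 10.8, 5.17 and 32.5 CPM (log2 -2.11, SE 0.51, adjusted p = 0.0163), and Mmp7, matrilysin, at 4.64, 3.35, 1.59 and 5.04 against 8.34, 10.2, 7.27 and 11.9 CPM (log2 -1.36, SE 0.38, adjusted p = 0.0254). Mmp7 did not overlap, while Mmp3 crossed at tamoxifen library 4 and vehicle library 3. Adam12, a fibroblast sheddase, fell (log2 -1.17). These counts depended on single libraries: with each of the 8 left out in turn, 1 to 17 collagen genes, 0 to 17 glycoproteins, 0 to 13 fibroblast genes, 0 to 7 mural genes, 1 to 9 TGF-beta genes, 1 to 10 metalloproteinase genes and 0 to 7 basement membrane genes fell. The lowest count came in each case without tamoxifen library 3, and the same count without vehicle library 4. The medians kept their sign in each of these 8 fits, from -1.36 to -0.83 for collagens and -1.26 to -0.85 for fibroblast genes.

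Macrophage RNA was lower after tamoxifen, and lymphocyte RNA varied within both groups. Of 24 tested macrophage and monocyte markers 15 fell, 24 had a value below 0, and the median was -1.34. Itgam, the CD11b integrin of myeloid cells, stood at 17.96, 12.4, 6.29 and 22.2 against 47.6, 47.9, 31.6 and 72.2 CPM without overlap (log2 -1.76, SE 0.34, adjusted p = 0.00809). C3ar1, the complement C3a receptor of myeloid cells, fell (log2 -1.83), with tamoxifen library 4 (15.3 CPM) just above vehicle library 3 (15.0 CPM). The summed markers stood at 791, 670.4, 402 and 1421 CPM in tamoxifen and 2120.0, 1406, 1035 and 2445 CPM in vehicle libraries. Tamoxifen library 4 lay within the vehicle range and tamoxifen library 3 was lowest. Wild-type injured kidneys held 3143, 3192, 1770.0 and 2133 CPM. Of 15 dendritic cell and MHC class II genes, Itgax, the CD11c integrin (log2 -1.31), and Zbtb46, a dendritic cell factor (log2 -0.61), fell and the rest did not pass. None of 19 T and NK cell genes and none of 16 B and plasma cell genes passed in edgeR. The largest values were -1.22 (adjusted p = 0.217) for Gzmk and -1.197 (adjusted p = 0.153) for Foxp3 among T and NK genes, and -1.21 (adjusted p = 0.366) for Bank1 and -1.15 (adjusted p = 0.45) for Pax5 among B cell genes. B and plasma cell RNA summed to 886, 1866, 919 and 13250.0 CPM in the tamoxifen and 8313, 1365, 526 and 7821 CPM in the vehicle libraries. Tamoxifen library 4 and vehicle libraries 1 and 4 were high, and the remaining 5 low, across the groups. Without tamoxifen library 4, edgeR called 17 of 21 T and NK cell genes (median -2.05) and 9 of 16 B and plasma cell genes (median -2.43) lower, and without any 1 of the other 7 libraries it called 0 in both lists.

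Of 6 neutrophil genes, 1 passed, Mmp8, the neutrophil collagenase, at 0.747, 0.317, 0.547 and 0.272 against 0.466, 2.24, 3.08 and 0.731 CPM (log2 -1.79, SE 0.58, adjusted p = 0.0428). Among chemokine genes of monocytes and lymphocytes, counted as 21 gene IDs, 4 fell: Ccl9 (-1.59), Ccl6 (-1.42), Csf1, the macrophage growth factor (-0.71), and Cxcl16 (-0.71). Of 20 neutrophil chemokine and TNF response genes 3 fell: Cxcl5, Il6 (-1.67) and Birc3 (-0.72). Tnf itself stood at 1.49, 0.906, 0.8201 and 2.62 against 4.32, 1.89, 1.78 and 6.06 CPM and did not pass (log2 -1.25, SE 0.597, adjusted p = 0.143). In the complement list 8 of 17 fell and Cfb, complement factor B, rose (log2 0.76, named after its value was seen). C5ar1 stood at 2.87, 1.36, 2.19 and 2.96 against 6.603, 9.13, 4.58 and 9.54 CPM (log2 -1.66, SE 0.38, adjusted p = 0.0143) without overlap, and C1qa and C1qb, the macrophage-made C1q chains, fell (log2 -1.402 and -1.45). Of 23 interferon response genes 6 fell, led by Irf7 (-1.51), Oas1a (-1.503), Oasl2 (-1.46) and Oas3 (-1.04), and all 23 had values below 0 (median -0.91). Over the 8 fits with 1 library left out, the number that fell was 2 to 21 for macrophage genes, 0 to 14 for dendritic and MHC class II genes, 0 to 8 for chemokines, 0 to 10 for TNF response genes, 0 to 14 for complement and 0 to 22 for interferon genes. Without tamoxifen library 4 these counts were 21, 14, 8, 10, 13 and 22, and without vehicle library 4 they were 2, 0, 0, 0, 0 and 0.

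**Figure D3:**
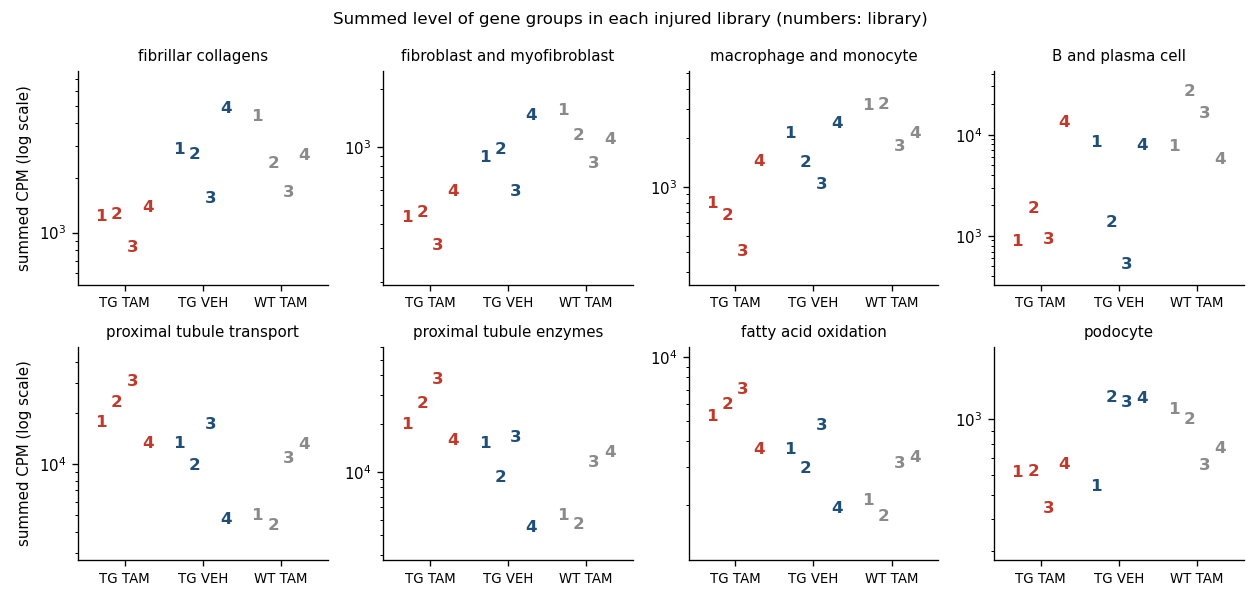
Summed CPM on log axes of 8 gene groups in the 12 injured libraries, where each numeral is the library number and the columns are floxed tamoxifen (TG TAM), floxed vehicle (TG VEH) and wild-type tamoxifen (WT TAM). Tamoxifen library 3 and vehicle library 4 mark opposite ends of the 8 floxed libraries for collagens, macrophages and proximal tubule genes, and in the B and plasma cell panel tamoxifen library 4, at 13250.0 CPM, is the highest of the 8.

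Proximal tubule genes were higher after tamoxifen. Of 22 transport genes 8 rose and none fell in edgeR, all 22 had values above 0, and the median was 0.91. Slc7a13, an amino acid exchanger of the straight segment, stood at 570.3, 780.0, 1046 and 442 CPM against 352, 153, 196 and 51.98 CPM (log2 1.92, SE 0.45, adjusted p = 0.0158). Slc27a2, a fatty acid transport protein and acyl-CoA synthetase, stood at 2549, 2625, 3845 and 1660.0 against 1442, 780.2, 1196 and 387 CPM (log2 1.49, SE 0.37, adjusted p = 0.0176), and Slc16a9, a monocarboxylate carrier, rose (log2 1.43). These 3 were separated in every library. Slc22a8, the organic anion transporter OAT3, rose (log2 1.36) with overlap, since tamoxifen library 4 (82.9 CPM) lay below vehicle library 3 (100.1 CPM). Summed transport RNA stood at 17590.0, 22900.0, 30690.0 and 13280.0 CPM in the tamoxifen and 13270.0, 9801, 17180.0 and 4726 CPM in the vehicle libraries, and at 4987, 4363, 10810.0 and 13100.0 CPM in wild-type injured kidneys. Contralateral kidneys covered 37840.0, 36820.0, 40620.0 and 37400.0 CPM with tamoxifen and 34290.0, 31780.0, 33770.0 and 36020.0 CPM with vehicle, so each injured library was below each contralateral one.

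Of 24 proximal tubule enzymes 11 rose and none fell in edgeR (median 1.08). Beside Cyp7b1 and Hpd they included Ttc36, linked to tyrosine metabolism, at 144, 188, 250.3 and 91.1 against 90.1, 35.5, 67.3 and 20.7 CPM (log2 1.66, SE 0.43, adjusted p = 0.0218), and Acy3, an aminoacylase, at 397, 579.8, 702 and 309 against 247, 128, 217 and 65.01 CPM (log2 1.596, SE 0.41, adjusted p = 0.0196), neither with overlap. Fatty acid oxidation genes rose in 8 of 25 cases (median 0.61). Acadm, the medium-chain acyl-CoA dehydrogenase, stood at 380.3, 463, 577 and 295 against 201, 169, 247 and 98.2 CPM (log2 1.26, SE 0.24, adjusted p = 0.00789), and Acox2, of peroxisomal branched-chain oxidation, rose (log2 1.33) without overlap. Ppara, the nuclear receptor that drives this programme, stood at 77.5, 98.6, 135 and 55.9 against 54.01, 34.2, 61.9 and 23.1 CPM (log2 1.08, SE 0.34, adjusted p = 0.0379) and crossed at tamoxifen library 4 and vehicle library 3. Respiratory chain genes rose in 8 of 21 cases (median 0.7004), led by Ndufa4 at 101, 129, 144 and 81.9 against 69.1, 54.8, 71.3 and 36.9 CPM (log2 0.98, SE 0.298, adjusted p = 0.0357), with Ndufb8 (0.81), Ndufv1 (0.75) and Cyc1 (0.75). Cholesterol synthesis genes rose in 4 of 17 cases: Idi1 (1.096), Cyp51 (1.04), Hmgcs1 (0.84) and Sqle (0.73), the last at 98.9, 119, 115 and 84.1 against 68.7, 67.7, 67.96 and 47.5 CPM. Pck1, the gluconeogenic enzyme of proximal tubule that was held on the adipocyte list, stood at 2257, 3216, 3279 and 1528 against 988, 829.8, 1432 and 376 CPM (log2 1.503, SE 0.42, adjusted p = 0.0256). The 7 other adipocyte genes did not pass, and Adipoq, the defining one, stood at 13.1, 27.4, 0.273 and 8.06 against 0.635, 17.7, 4.62 and 0.043 CPM. With 1 library left out in turn, 0 to 14 transport genes, 1 to 19 enzymes, 1 to 17 oxidation genes, 0 to 21 respiratory genes and 0 to 7 cholesterol genes rose. Without tamoxifen library 3 the counts were 1, 1, 1, 0 and 1, and without vehicle library 4 they were 0, 1, 1, 0 and 0.

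In the more distal segments 2 genes passed, a share near those of the genome (7.48% higher and 7.13% lower). Egf, made in the thick ascending limb and distal tubule, stood at 1231, 1138, 2000.0 and 811 CPM with tamoxifen and 367, 446, 1017 and 419 CPM with vehicle (log2 1.203, SE 0.38, adjusted p = 0.0413), the 1 call among 10 loop of Henle genes. Trpm6, the magnesium channel of the distal convoluted tubule, fell from 37.8, 58.8, 46.3 and 49.4 to 31.7, 32.1, 32.5 and 29.02 CPM (log2 -0.62, SE 0.15, adjusted p = 0.016), the 1 call among 10 genes of that segment. None of 15 collecting duct genes passed in edgeR, and the largest values were log2 1.91 (SE 0.75), adjusted p = 0.0838, for Aqp4 and log2 0.78 (SE 0.34), adjusted p = 0.111, for Aqp3, water channels of principal cells. With 1 library left out, 0 to 6 loop genes, 0 to 2 distal convoluted genes and 0 to 7 collecting duct genes rose, the most without vehicle library 3 (6, 2 and 7). Of 23 tubular injury genes 7 fell. Anxa3, an annexin, stood at 32.2, 29.1, 16.9 and 34.7 against 43.6, 68.3, 44.1 and 69.8 CPM (log2 -0.998, SE 0.21, adjusted p = 0.0121), Cldn4, a claudin, at 44.5, 38.2, 20.7 and 44.5 against 45.3, 92.3, 77.4 and 78.3 CPM (log2 -0.99, SE 0.28, adjusted p = 0.026), and clusterin, Clu, at 443, 363, 249.6 and 326 against 305, 669.9, 906 and 679 CPM (log2 -0.89, SE 0.24, adjusted p = 0.0252). Vehicle library 1 lay in the tamoxifen range for Clu, and the other 2 genes did not overlap. The clinical injury markers did not pass. Havcr1, which encodes KIM-1, held 21.2, 9.55, 3.78 and 13.2 against 48.8, 27.3, 9.79 and 7.95 CPM (log2 -0.97, SE 0.65, adjusted p = 0.3), and Lcn2, which encodes NGAL, held 51.05, 29.9, 11.5 and 37.4 against 50.6, 89.5, 79.05 and 69.2 CPM (log2 -1.15, SE 0.45, adjusted p = 0.0806), with overlap in both.

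Podocyte genes fell in 8 of 10 cases (median -0.82), with vehicle library 1 apart from its group. Ptpro, a podocyte phosphatase, held 27.6, 30.3, 18.2 and 35.6 CPM after tamoxifen and 26.4, 59.01, 54.4 and 59.98 CPM with vehicle (log2 -0.84, SE 0.23, adjusted p = 0.0256), and vehicle library 1 was below 3 of the 4 tamoxifen libraries. Wt1, the podocyte transcription factor, also fell (log2 -0.83). Of 16 endothelial genes 3 fell, Eng (-0.69), Sox17 (-0.66) and Ehd3 (-0.61). Cell cycle genes fell in 6 of 22 cases, led by the replication licensing genes Mcm5 (-1.14), Mcm3 (-1.08) and Mcm4 (-0.83) with the factor E2f1 (-0.64). Among 17 immediate early and dissociation genes, Hspa1a, the inducible heat shock protein, stood at 65.8, 45.6, 72.3 and 63.6 CPM in the tamoxifen and 17.4, 20.6, 25.9 and 20.1 CPM in the vehicle libraries (log2 1.56, SE 0.27, adjusted p = 0.00444), and Klf4 fell (log2 -0.68). These calls, 1 higher and 1 lower, lie near the shares over all genes tested (7.48% and 7.13%). None of 13 oestrogen and xenobiotic response genes passed in edgeR, nor any tested gene of adrenal, erythroid, heart, skeletal muscle or sex-linked lists. Their largest values were 1.25 for Cyp2b10 (adjusted p = 0.212), 1.09 for Ces1f (0.139), -0.027 for Star (0.954), 0.35 for Hba-a2 (0.705), -1.36 for Myh6 (0.116), 0.27 for Mylpf (0.71) and 0.32 for Eif2s3y (0.0904). Alb was the 1 call of 4 tested pancreas and liver genes, at 3.34, 3.94, 4.92 and 1.87 against 1.35, 0.834, 2.05 and 0.344 CPM (log2 1.603, SE 0.52, adjusted p = 0.0434). The number of podocyte genes that fell ranged over 0 to 9 with 1 library left out, that of tubular injury genes over 0 to 10, that of endothelial genes over 0 to 6 and that of cell cycle genes over 0 to 17, with 0 in these 4 lists without tamoxifen library 3 and without vehicle library 4.

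**Figure D4:**
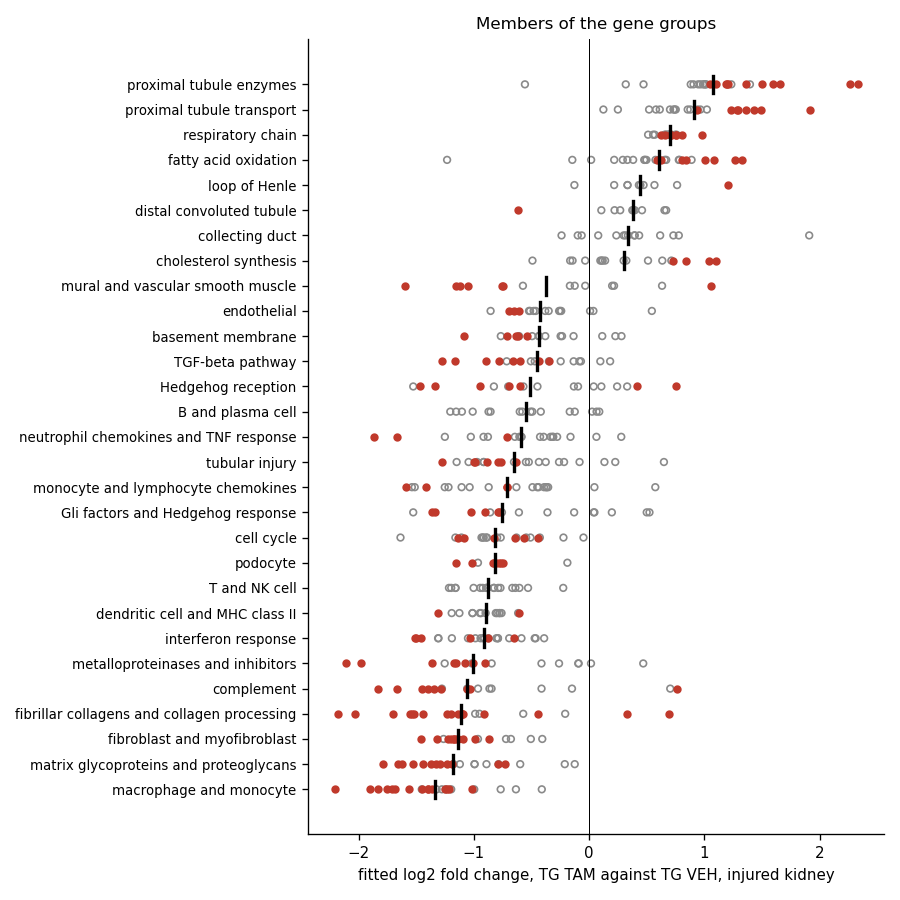
Fitted log2 fold changes of tamoxifen over vehicle in injured kidney for the members of 29 gene groups, with filled red points for members that passed an adjusted p of 0.05, open grey points for those that did not, and a black bar at the median. Medians run from -1.34 for macrophage and monocyte genes to 1.08 for proximal tubule enzymes.

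The contralateral kidney gives the same comparison without ischaemia. There 93 of 16989 genes passed (0.547%), 7 higher (0.0412%) and 86 lower (0.506%), and 2592 had an unadjusted p under 0.05. This count depended on single libraries. Without contralateral vehicle library 2, which held 5.55% mitochondrial and 1.64% ribosomal protein counts, 26 genes passed, 11 higher and 15 lower. Of these 26 genes 16 were among the 93. Without contralateral vehicle libraries 1, 3 and 4 the count was 132, 582 and 60. Without contralateral tamoxifen libraries 1 to 4 it was 23, 10, 14 and 0, the last with 1806 at an unadjusted p under 0.05. Lcn2 was the largest of those named, at 1.5, 1.23, 1.05 and 0.967 CPM with tamoxifen and 3.44, 5.83, 19.8 and 5.05 CPM with vehicle (log2 -2.83, SE 0.53, adjusted p = 0.0256). S100a11, a calcium-binding protein (-1.81), Fau, a ribosomal fusion protein (-2.04), and Ndufa5 and Ndufa13, of respiratory complex I (-1.53 and -1.52), were the others lower. Higher were Creb5 (1.42), Olfr102 (0.83) and Ptbp2 (0.68). No member of the collagen, fibroblast, macrophage or proximal tubule lists passed there in edgeR, and their medians were -0.051, -0.087, -0.397, 0.15 for transport and -0.11 for enzymes. Members of other lists passed there. Of the tubular injury genes Lcn2 and Spp1, which encodes osteopontin and is also on the matrix glycoprotein list, fell (Spp1 log2 -1.09, SE 0.22, adjusted p = 0.0335), with a median of -0.61 beside -0.65 in injured kidney. The respiratory chain gene Ndufa4 fell (log2 -1.37, SE 0.2997, adjusted p = 0.0468), and the monocyte and lymphocyte chemokines had a median of -0.54 with 0 called by edgeR. Spp1 was named after its value was seen.

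Whether the comparison differed between the injured and the contralateral kidney was tested in the same fit. The difference passed in 781 genes (4.6%), 535 of them (3.15%) with a larger value in the injured kidney and 246 (1.45%) with a smaller one. The number was 468 without contralateral vehicle library 2 and 15 with the 4 compared groups alone, and over the fits with 1 library left out it ran from 93 to 2193. Cyp7b1 differed by 2.45 (SE 0.303, adjusted p = 0.00117), with contralateral levels of 126, 124, 141 and 176 CPM with tamoxifen and 152, 183, 139 and 173 CPM with vehicle. Methig1 differed by 2.81 (SE 0.37, adjusted p = 0.00143), Mettl7a2 by 2.89 (SE 0.52, adjusted p = 0.0114), A4gnt by 2.42 (SE 0.41, adjusted p = 0.0112), Mep1b by 2.23 (SE 0.499, adjusted p = 0.0226) and Ceacam2 by 3.51 (SE 0.81, adjusted p = 0.0259). Hspa1a differed by 2.15 (SE 0.38, adjusted p = 0.0112). In the other direction Cx3cr1 differed by -1.99 (SE 0.56, adjusted p = 0.0467), at 9.84, 6.45, 10.3 and 9.28 against 10.3, 11.7, 7.74 and 11.9 CPM in contralateral kidneys. The podocyte genes Wt1 and Ptpro differed by -1.33 and -1.16, and Tgfb2 by -1.53 (SE 0.36, adjusted p = 0.0278). Without contralateral vehicle library 2 the differences of Cx3cr1 (-2.05, SE 0.601, adjusted p = 0.0667) and Ptpro (-1.06, SE 0.34, adjusted p = 0.0888) no longer passed. For Col1a1 the difference, -1.61 (SE 0.66, adjusted p = 0.123), did not pass, nor did it for Serpina3n, at 0.498 (SE 0.86, adjusted p = 0.724), or Timp1, at -0.089 (SE 0.91, adjusted p = 0.958), which had values of -2.82 and -1.89 in the contralateral kidney. For Gli1 the difference was -1.65 (SE 0.65, adjusted p = 0.113) and for Ihh -0.32 (SE 0.53, adjusted p = 0.709), so neither was shown to differ between the kidneys. Below 0, it passed for 3 of 21 collagen, 1 of 17 fibroblast and 1 of 24 macrophage genes. Above 0, it passed for 1 collagen gene, 1 of 24 proximal tubule enzymes and 0 of 22 transport genes. Most members of these lists were thus not shown to differ between the kidneys.

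**Figure D5:**
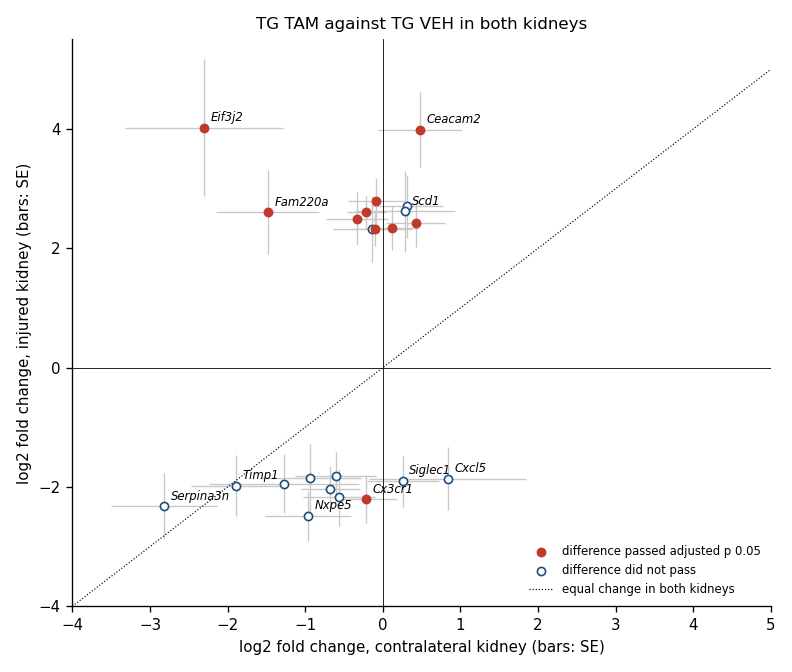
Fitted log2 fold changes of tamoxifen over vehicle in contralateral (x) and injured (y) kidney for the 23 named genes, with bars of 1 SE and a dotted line of equal change. Filled red points passed the test of the difference; Serpina3n and Timp1 lie near the dotted line, while the higher genes lie near 0 on the x axis except Eif3j2 and Fam220a.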

How the data were processed

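The authors deposited expected counts for each transcript, made with Salmon 1.4, with GRCm38 and mm10 as builds, per the submitters' processing notes. Index and options are not stated there. Transcripts were summed to genes with GENCODE M21: 105281 of 105833 matched, 552 (0.185% of counts) were left out, and 33714 genes were rounded to whole counts. Each group has 4 numbered columns, taken as libraries. No library was a copy of another (lowest chi-square per gene 25.7). edgeR 4.0.16 (R 4.3.3) used TMM factors, filterByExpr and glmQLFit on the 24 injury-arm libraries with 1 coefficient per group, and p-values were adjusted by Benjamini-Hochberg over 16989 genes (threshold 0.05). The test was checked on simulated counts. Alternatives included DESeq2 1.42.0. Libraries of the nephrectomy and uninjured groups were outside the fit.

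Named genes were the 12 per direction with the largest change among called genes whose mean log2 CPM reached 1 and whose groups did not overlap, leaving out receptor segments, predicted genes, pseudogenes and ribosomal copies. One of the 12 lower genes and some list members are not reported here, though list counts include them. Up to 4 per list were added, 5 per direction for the other contrasts, and a fixed set (Ihh, Shh, Dhh, Gli1, Ptch1, Hhip, Cx3cr1, Ppara, Tnf, Havcr1, Lcn2, Col1a1, Acta2). Members and lists were chosen with earlier results of these data known. Single-cell tables were not used here.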

Additional observations from a re-analysis of the deposited data

Results flagged for a closer look

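Among 368 group-by-gene or group-by-list sets of 4 libraries, 13 had 1 library far from the other 3, with a gap, as a share of the group's whole range, above Dixon's 95% critical value. Chance alone is expected to place about 1 in 20 groups past it, which is more than were found. Tamoxifen library 3 was the low library for Col1a1 at 38.1 CPM, Col3a1 at 67.1 CPM, Col18a1 at 231 CPM, Gpr161 at 2.92 CPM and Foxl1 at 0.638 CPM. Vehicle library 1 was the low library for the podocyte gene Ptpro at 26.4 CPM, for the summed podocyte list at 539.9 CPM and for Myh6 at 0.169 CPM. Tamoxifen library 4 was low for Ndufa5 at 11.6 CPM and mt-Nd3 at 110.1 CPM, tamoxifen library 1 for Eif3j2 at 3.62 CPM, vehicle library 4 for Sqle at 47.5 CPM and vehicle library 3 for Tnc at 39.0 CPM.

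For 35 named gene IDs the tamoxifen-against-vehicle comparison differed between injured and contralateral kidney by a test of the difference itself (edgeR, adjusted p under 0.05 over all genes tested). Up to 5 per direction were named because their difference passed and was among the largest, so for those the outcome was fixed by the naming rule. The log2 value in the injured minus that in the contralateral kidney was above 0 for Eif3j2 (6.32), Fam220a (4.09), Ceacam2 (3.51), mt-Nd3 (3.13), Mettl7a2 (2.89), Neurog2 (2.83), Methig1 (2.81), Ndufa13 (2.48), Ndufa5 (2.47), Fau (2.46), Cyp7b1 (2.45), A4gnt (2.42), Ndufa4 (2.34), Mep1b (2.23), Hspa1a (2.15), Mpped1 (2.01), S100a11 (1.82), Acox2 (1.67), Ndufb8 (1.58), Acadm (1.46), Cyp51 (1.26). It was below 0 for Fam220a (-4.58), Col8a2 (-2.49), Nlgn3 (-2.35), Dpep2 (-2.24), Creb5 (-2.20), Cx3cr1 (-1.99), Tgfb2 (-1.53), Wt1 (-1.33), Olfr102 (-1.25), Ptpro (-1.16), Zbtb46 (-1.09), Ptbp2 (-1.05), Ehd3 (-1.02), Trpm6 (-0.80). The opposite signs of the Fam220a values belong to 2 gene IDs of 1 locus, between which counts may be split, and those of Eif3j2 rest on levels under 10 CPM in injured kidney. For Ndufa5, Ndufa13, Fau, S100a11 and mt-Nd3 the contralateral vehicle group holds library 2, the highest of that group in mitochondrial (5.55%) and ribosomal protein (1.64%) counts. Without that library the differences were 2.04, 2.02, 1.81, 1.65 and 2.53, and that of S100a11 no longer passed (adjusted p = 0.0545). Of all 35 differences, 27 passed without it and 35 had the same sign.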

How the results depend on the processing

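Ihh was lower under all alternatives run. Its exact permutation test passed with unscaled library totals alone (-5.52 CPM, p = 0.0286), and of the fits across all genes DESeq2 on the 8 and on the 12 libraries called it (adjusted p = 0.0424 and 0.0339; all 18 alternative fits, 0.0339 to 0.664), these 3 being alternatives chosen after seeing the data. With 1 library left out the difference ran from -5.38 to -2.50 CPM, where 4 against 3 allow no exact p below 0.0571. The 2481 calls in injured kidney became 0 with the compared groups only, 13 with the 12 injured libraries, 0 with all 32 bulk libraries (2770 at an unadjusted p under 0.05), 4209 without contralateral vehicle library 2 and 91 at an adjusted p under 0.01. With 1 library left out they ran from 93 to 4883. The 93 contralateral calls became 54 without the low-count filter, 569 with DESeq2, 0 with the compared groups only (1455 at an unadjusted p under 0.05), 49 with all 32 libraries, and 0 to 582 with 1 library left out, 26 without contralateral vehicle library 2. The 781 differences became 401 without the filter, 1860 with DESeq2, 15 with the compared groups, 72 with all 32 libraries and 93 to 2193 with 1 library left out. Apart from fewer libraries in the smaller fits, the cause was not tested. RLE factors gave 2444 injured calls, DESeq2 3618 and no filter 1722. Of 144 named gene IDs 113 were called. With RLE factors 143 kept direction and side of the threshold, and the fewest did so with the compared groups only (30), all 32 libraries (31), the 12 injured libraries (33), without vehicle library 4 (45) and without tamoxifen library 3 (51). No called gene changed sign, and 4 uncalled ones did under some alternative. The DESeq2 fits on the 8 and 12 libraries were added after seeing the data.

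No label says that equal column numbers share an animal or batch, so they were not taken as pairs. Deviations from the group means of injured tamoxifen and vehicle libraries correlated at -0.335, 0.178, 0.434 and 0.606 for numbers 1 to 4. Numbers 2 to 4 matched their own number best, a hint from the data that number 1 does not share. The contralateral tamoxifen and vehicle libraries do not share it either. There the correlations of equal numbers were -0.141, -0.0372, -0.0345 and 0.0093, and no number matched its own best. What lies behind the matches in injured kidney was not tested. A replicate block by number gave 2424 injured calls, 21 contralateral calls, 564 differences and, with blocks within each arm, 78 differences.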
